A study of Homo sapiens with 16 samples.

Results

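The 10 genes PHGDH, PSAT1, PSPH, SHMT2, MTHFD2, CTH, ASNS, SLC7A5, SLC7A11 and SLC3A2 make serine, cysteine and asparagine, feed one-carbon units into the mitochondrial folate cycle, or carry amino acids across the plasma membrane. They were looked up by symbol in a RefSeq table (GRCh38.p14) of 20033 protein-coding genes, and all 10 were found. Chromatin immunoprecipitation followed by sequencing had been done in HEK293T, a human embryonic kidney cell line that the labels give as wild type. HDGF was precipitated from control-depleted cells and after 24 h in glucose-free medium. INTS13 was precipitated from control-depleted cells, from cells treated for 72 h with HDGF-specific siPOOLs (pools of small interfering RNAs), and from the glucose-starved cells. Each of these 5 groups had 2 labelled replicates but only 1 peak list, which means that replicate errors cannot be given and no test between conditions was possible. The control cells had a control depletion and the labels name none for the starved cells, so starvation and the absence of that treatment cannot be told apart. The INTS13 antibody was from Bethyl Laboratories in control and HDGF-depleted cells and from Proteintech in starved cells, so antibody and starvation cannot be told apart either. No HDGF precipitation from HDGF-depleted cells was analysed here, so these lists do not check the depletion.

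Serine is made from a glycolytic intermediate by PHGDH, PSAT1 and PSPH, in that order, and SHMT2 and MTHFD2 pass its one-carbon unit through mitochondrial folates for purine and thymidylate synthesis. CTH splits cystathionine to give cysteine, ASNS makes asparagine, and SLC3A2 is the heavy chain that pairs with SLC7A5, an importer of large neutral amino acids, or with SLC7A11, which exchanges cystine for glutamate. Many of these genes are known targets of ATF4, the transcription factor that responds to a lack of amino acids and to other stresses. HDGF is a chromatin protein whose PWWP domain recognises methylated histone H3 lysine 36, a mark of transcribed gene bodies. INTS13 is a subunit of Integrator, which cleaves nascent RNA and acts on paused RNA polymerase II near gene starts.

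The start regions were looked at first, with peaks counted over the promoter sequences themselves. A RefSeq promoter table gave 10 promoters of 300 bp, from 250 bases before the start to 49 after it, for 7 of the genes. Entries for PSPH, SHMT2 and SLC7A11 were not in that table. Of the 7 genes, HDGF had a peak on a promoter at 1 in control cells (SLC3A2) and 1 in starved cells (SLC7A5), against 3.51% and 7.41% of all 15842 protein-coding genes in the table. INTS13 had one at 1 in control cells (CTH), at 3 after HDGF depletion (MTHFD2, CTH and SLC3A2) and at 1 in starved cells (SLC7A5), against 2.48%, 6.75% and 4.89% of all genes. The 3 promoters over which INTS13 covered most bases are shown with ASNS, which had no peak there in any list. Capitals mark the bases inside the INTS13 peak of HDGF-depleted cells for CTH and SLC3A2 and of starved cells for SLC7A5. In ASNS they mark the amino acid response element core TGATGNAA. All are written 5′ to 3′ on the gene's own strand, from RefSeq on GRCh38.p14: CTH at chr1:70411018-70411317 (plus strand), the promoter of SLC3A2 at chr11:62880646-62880945 (plus), SLC7A5 at chr16:87869458-87869757 (minus) and ASNS at chr7:97872359-97872658 (minus).
CTH: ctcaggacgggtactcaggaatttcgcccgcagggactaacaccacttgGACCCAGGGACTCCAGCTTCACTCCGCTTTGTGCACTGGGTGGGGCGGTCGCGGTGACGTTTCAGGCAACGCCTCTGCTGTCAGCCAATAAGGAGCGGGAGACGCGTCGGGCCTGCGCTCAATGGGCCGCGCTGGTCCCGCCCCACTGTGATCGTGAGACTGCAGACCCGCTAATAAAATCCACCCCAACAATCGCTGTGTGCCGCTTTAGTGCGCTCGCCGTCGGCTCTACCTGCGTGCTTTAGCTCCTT
SLC3A2: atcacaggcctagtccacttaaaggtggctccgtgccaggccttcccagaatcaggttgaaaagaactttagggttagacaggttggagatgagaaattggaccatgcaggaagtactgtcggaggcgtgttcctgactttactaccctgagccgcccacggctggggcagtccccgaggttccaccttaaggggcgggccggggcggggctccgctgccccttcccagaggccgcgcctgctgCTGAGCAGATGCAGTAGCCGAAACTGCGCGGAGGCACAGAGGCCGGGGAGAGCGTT
SLC7A5: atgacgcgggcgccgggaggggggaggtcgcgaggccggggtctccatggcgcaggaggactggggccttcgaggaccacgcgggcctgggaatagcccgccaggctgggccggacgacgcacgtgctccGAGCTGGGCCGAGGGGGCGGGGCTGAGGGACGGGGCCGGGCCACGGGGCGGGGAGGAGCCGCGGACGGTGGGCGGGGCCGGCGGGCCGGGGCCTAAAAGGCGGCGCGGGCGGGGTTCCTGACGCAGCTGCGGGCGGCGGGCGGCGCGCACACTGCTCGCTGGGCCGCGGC
ASNS: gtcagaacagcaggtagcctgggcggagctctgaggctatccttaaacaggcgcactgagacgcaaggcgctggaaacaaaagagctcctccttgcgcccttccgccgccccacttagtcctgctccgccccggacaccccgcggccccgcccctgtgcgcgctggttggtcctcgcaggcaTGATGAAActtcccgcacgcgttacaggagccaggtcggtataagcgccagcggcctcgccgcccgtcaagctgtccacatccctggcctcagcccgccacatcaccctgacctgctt

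At CTH the INTS13 peak of HDGF-depleted cells, at chr1:70411067-70411726, covered the start and 251 of the 300 bases shown. At SLC3A2 the peak at chr11:62880890-62881118 covered the last 56 bases, including the start at 62880896. At SLC7A5 the peak of starved cells, at chr16:87869273-87869627, covered 170 of the bases shown, and its summit lay 7 bases past the start. At MTHFD2 the peak of HDGF-depleted cells, at chr2:74198662-74198999, began 47 bases past the start, and at PHGDH the nearest one began 101 bases past it. The nearest edge of an HDGF control peak lay farther off at PHGDH, MTHFD2 and CTH, 1233, 538 and 742 bases from their starts. It lay nearer than the INTS13 depletion peaks at PSAT1 (1247 against 3488 bases) and SLC7A5 (679 against 1355 bases). At SLC3A2 the HDGF edge was nearer at the starts 62881699 (39 against 581 bases) and 62856109 (846 against 4235). It was farther at 62880896 (328 against 0). At ASNS it was nearer at both starts (5101 against 68953 and 4858 against 69196 bases). All of these are intervals called by the authors, whose edges depend on their peak threshold.

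The promoters were also searched on both strands for 4 motifs. TGATGNAA matched in 2 of the 10 promoters: in ASNS, from position -68 to -61 with the start as 0, and in the SLC3A2 promoter that starts at 62881699, from 37 to 44. It matched in 2.69% of 22198 promoters of protein-coding genes. The E-box CACGTG matched in 1, at SLC7A5 from -130 to -125, against 8.34%. The AP-1 motif TGACTCA matched in 1, in the same SLC3A2 promoter from -37 to -31, against 4.01%. The GC box GGGCGG matched in 8 of 10, against 56.3%, with 6 matches in SLC7A5 alone. In the second ASNS promoter 2 of its matches share a base, and no match of one motif overlaps a match of another. GC content ran from 52.7% (PHGDH) to 80.3% (SLC7A5), with a median of 62.7% against 62.3% for all promoters. A match is a run of letters and not a bound site.

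Depth differed between lists, and read totals were not used here. The relation of fold to p in each list gives backgrounds in reads per position: 6.69 (control) and 9.84 (starvation) for the HDGF lists, then 6.4, 4.2 and 15.2 for INTS13 in control, HDGF-depleted and starved cells. The lists held 106674, 68138, 31233, 105994 and 15639 peaks in that order, so counts of peaks are to be read beside list length. One read at a summit changed the fold by 0.130, 0.0896, 0.135, 0.192 and 0.0578. A single background value per list was fitted to the pairs of fold and p. In both starved lists the fitted value was 7.41, with reads scaled by 0.753 for HDGF and 0.486 for INTS13. Dividing by these scales gives the 9.84 and 15.2 above. In the other lists the scale was 1. The fits reproduced 88 of 88, 110 of 111, 93 of 93, 65 of 65 and 143 of 143 pairs. The folds were thus taken over 1 constant per list and not over a local background. Local differences in input reads therefore remain uncorrected in the folds and peak counts. Intervals given below are exact Poisson 95% intervals on the summit reads, cover counting error only, and take no account of the summit being the highest point of its peak. Peaks were also unevenly spread over the genome: in control cells INTS13 had a peak at 35.2% of genes on chromosome 1, which holds PHGDH and CTH, and at 10.7% of genes on the other chromosomes. For HDGF the shares were 67.6% and 47.6%.

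**Figure D1:**
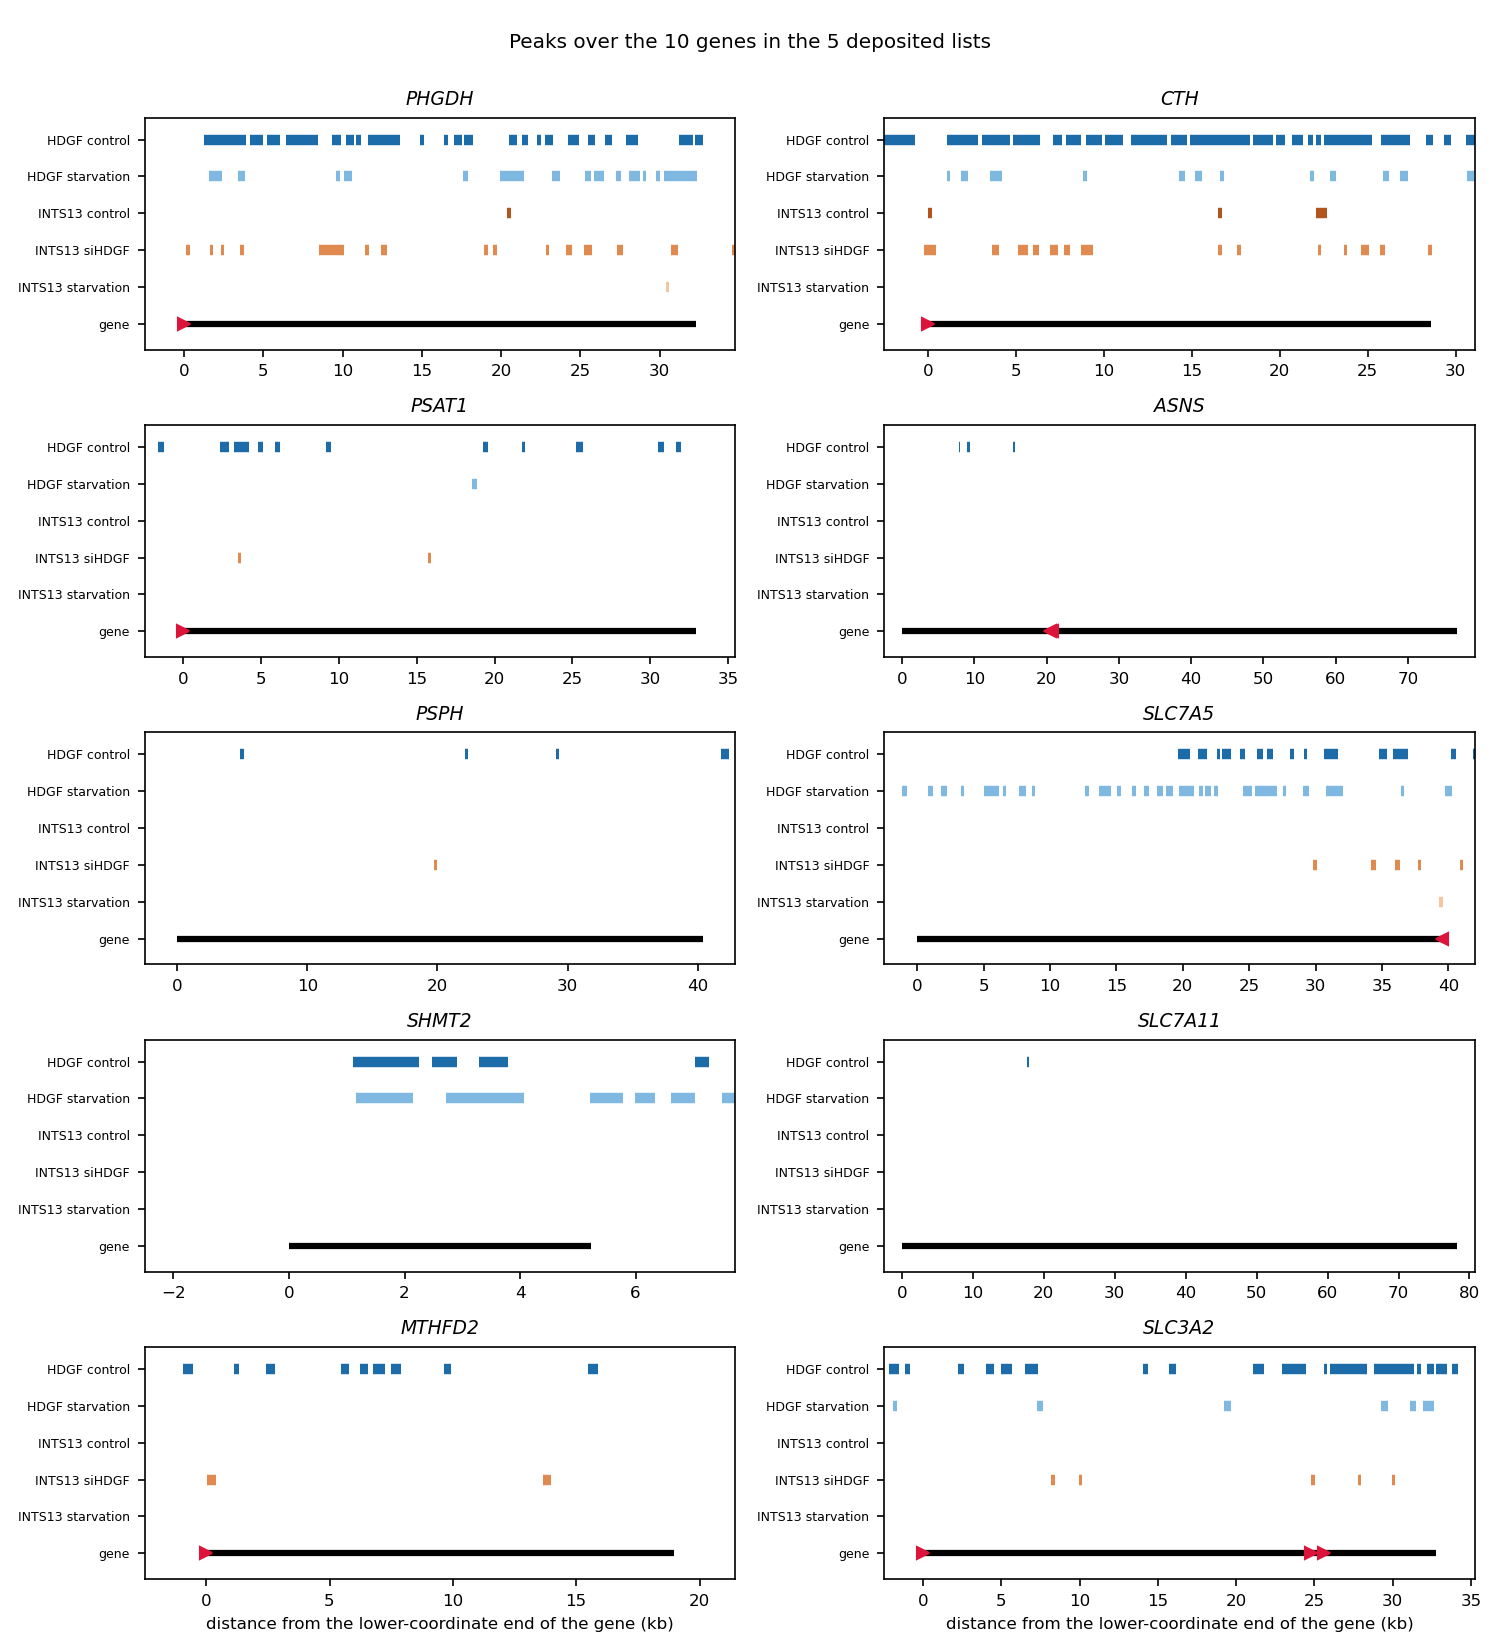
Peaks of the 5 deposited lists over each gene and 2.5 kb on either side, drawn to scale, with the distance from the lower-coordinate end of the gene in kb on the horizontal axis and 1 row per list; the black bar is the gene and red arrowheads are the starts in the RefSeq promoter table, pointing in the direction of transcription. HDGF control peaks covered 74.0% of the CTH window and 44.0% of the PHGDH window, while ASNS and SLC7A11 held 3 and 1.

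In control cells HDGF had a peak over the body or within 2.5 kb of either end of all 10 genes, where 49.7% of all protein-coding genes had one. The genes held 106 HDGF peaks in 435647 bp, or 24.3 per 100 kb, against 6.12 per 100 kb over all gene windows, and 17.3 per 100 kb over the 8 genes that are not on chromosome 1. The median was 10 peaks per gene against 0 over all genes. At least 10 peaks were found at PHGDH, PSAT1, CTH, SLC7A5 and SLC3A2, and at 10.8% of all genes. Genes within the length range of the 10 (5225 to 78253 bp) had an HDGF control peak in 51.7% of cases, close to the share of all genes. In each of the 10 windows HDGF control peaks were denser than in the 1 Mb on either side, as was the case for 38.7% of all protein-coding genes and for 77.9% of those with a peak.

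**Figure D2:**
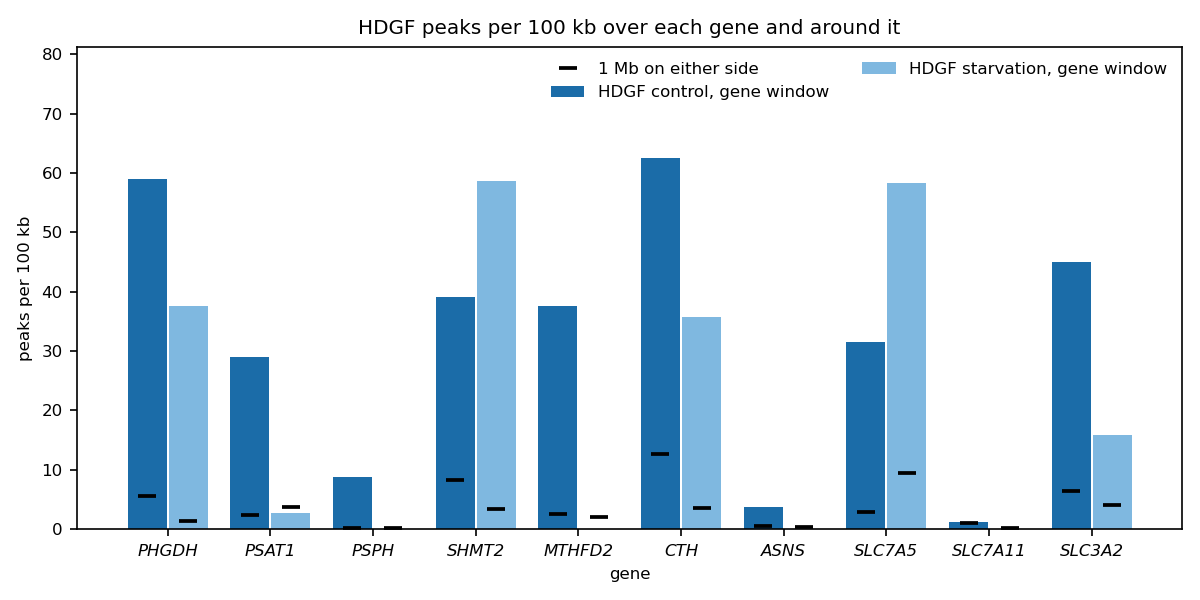
HDGF peaks per 100 kb (vertical axis) over each gene with 2.5 kb on either side, in control cells (dark bars) and starved cells (light bars); black dashes give the density in the 1 Mb on either side of the window in the same list, and there are no error bars because each group has 1 list. SHMT2, through peaks in its flank, and SLC7A5 had the higher bar in starvation, and PSPH, MTHFD2, ASNS and SLC7A11 had none there.

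Among the serine synthesis genes, PHGDH, whose enzyme takes the first step from 3-phosphoglycerate, held 22 HDGF peaks in control cells and 14 in starved cells (chromosome 1, 119711934 to 119744215). Its control peaks covered 44.0% of the window and its starvation peaks 23.6%. The strongest control peak lay near the start, at chr1:119713167-119715838 (fold 4.16, interval 2.87 to 5.86, from 31 reads), and the strongest starvation peak near the other end, at chr1:119742230-119744275 (fold 3.70, interval 2.68 to 5.00, from 40 reads). Of the summits in the gene body, 9 lay nearer the start than the midpoint and 12 beyond it in control cells, and 4 and 10 in starved cells. In the 1 Mb on either side the counts were 110 and 28, so the window held 0.636 times as many peaks in starvation and its surroundings 0.255 times. Of the 22 control peaks, 11 overlapped a starvation peak.

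PSAT1, the aminotransferase of the second step, held 11 HDGF peaks in control cells and 1 in starved cells (chromosome 9, 78297125 to 78330093). The control peaks had folds of 2.47 to 3.64, and the strongest was at chr9:78316391-78316674 (interval 2.45 to 5.24). The single starvation peak, at chr9:78315663-78315991 with a fold of 2.72 (interval 1.86 to 3.85), overlapped none of them. Around the gene the counts ran the other way, with 49 HDGF peaks in control cells and 76 in starved cells. PSPH, the phosphatase that completes serine synthesis, held 4 and 0 (chromosome 7, 56011064 to 56051444). One of its 4 peaks, at chr7:56052830-56053421, lay outside the gene and inside the neighbouring CCT6A, a subunit of the TRiC chaperonin, so 3 lay in PSPH itself. Only 3 HDGF peaks lay within 1 Mb on either side of PSPH in either list.

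In the mitochondrial folate cycle, SHMT2, the serine hydroxymethyltransferase, held 4 HDGF peaks in control cells and 6 in starved cells (chromosome 12, 57229711 to 57234935), covering 22.7% and 38.1% of the window. Its strongest starvation peak was at chr12:57232424-57233772 (fold 3.88, interval 2.83 to 5.20, 42 reads). Its strongest control peak, chr12:57232178-57232623, overlapped that interval (fold 3.38, interval 2.24 to 4.93, 25 reads). These folds rest on different backgrounds and are not compared. Of the 6 starvation peaks, 4 had their summit past the upper end of SHMT2, within the neighbouring COXFA4L2, which overlaps that end, so they cannot be assigned to SHMT2. Within the gene body the summits numbered 3 in control cells and 2 in starved cells, so the higher count in starvation came from the flank. In the 1 Mb on either side the counts were 167 and 69. MTHFD2, the folate dehydrogenase, held 9 peaks in control cells and 0 in starved cells (chromosome 2, 74198615 to 74217565). The strongest of the 9, at chr2:74204071-74204385, had a fold of 3.90 (interval 2.66 to 5.55, 29 reads). The nearest HDGF starvation peak lay 28328 bases from its start, while 42 starvation and 52 control peaks lay in the 1 Mb on either side.

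CTH had the densest HDGF control peaks of the 10 genes, with 21 control peaks over 74.0% of the window (chromosome 1, 70411268 to 70439851). Its strongest control peak, at chr1:70419104-70419942, had a fold of 4.55 (interval 3.19 to 6.31, 34 reads), and the widest spanned 3422 bp. In starved cells it held 12 peaks over 12.7% of the window, none with a fold above 3.07, and all 12 overlapped a control peak. In the 1 Mb on either side the counts were 254 and 71. Within chromosome 1, 10.1% of gene windows were at least as dense in HDGF control peaks as CTH and 12.1% at least as dense as PHGDH. ASNS, the asparagine synthetase, held 3 control peaks with folds of 2.34 to 2.73 and no starvation peak over 76765 bp (chromosome 7, 97851677 to 97928441). The 3 lay in the gene body past its starts, which fall inside the RefSeq gene, and all 3 also lie in the overlapping long non-coding gene CZ1P-ASNS.

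SLC7A5 was the transporter with more HDGF peaks in starvation, 26 against 14 in control cells (chromosome 16, 87830023 to 87869507). The window was covered to 17.0% in control cells and 31.1% in starved cells. In control cells all 12 summits in the gene body lay between the start and the midpoint and 0 beyond it, and in starved cells 10 and 14. The strongest peaks overlapped, at chr16:87849648-87850592 in control (fold 3.90, interval 2.66 to 5.55) and chr16:87849726-87850843 in starvation (fold 3.88, interval 2.83 to 5.20), and the lists differed in how far along the gene peaks were called. The 1 Mb on either side of SLC7A5 also held more HDGF peaks in starvation, 189 against 56, a ratio of 3.38 where the window had 1.86. SLC3A2, the shared heavy chain, held 17 control and 6 starvation peaks (chromosome 11, 62856109 to 62888860), covering 35.0% and 6.87% of the window. Its strongest control peak, at chr11:62853914-62854545 with a fold of 3.90, lay before the gene, inside SNHG1, the host gene of several small nucleolar RNAs, and a starvation peak of fold 2.81 overlapped it. SLC7A11, the cystine exchanger, held 1 control peak, at chr4:138181711-138182082 with a fold of 2.47 (interval 1.52 to 3.83, 18 reads), and 0 in starvation.

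Set side by side, HDGF was found in both lists at 6 of the 10 genes (PHGDH, PSAT1, SHMT2, CTH, SLC7A5 and SLC3A2) against 31.5% of all genes, in control cells alone at 4 (PSPH, MTHFD2, ASNS and SLC7A11) against 18.2%, and in starved cells alone at 0 against 9.57%. In starvation 6 of 10 genes thus had a peak, where 41.1% of all genes had one, and 5 of these 6 were denser than their surroundings. That held for 77.7% of all genes with a peak in that list, and for 31.9% of all genes, so 5 of 6 is near the share of genes with a peak. The 10 genes held 0.613 times as many HDGF peaks in starvation as in control cells. Over all gene windows the ratio was 0.626, and for the whole lists 0.639, so the group's total differed between lists about as much as the lists did, while single genes ranged from 0 (4 genes) to 1.86 times (SLC7A5). Of the 106 control peaks 34.9% overlapped a starvation peak, and of the 65 starvation peaks 61.5% overlapped a control peak. The same shares over the whole HDGF lists are not given here, so these 2 values describe the 10 genes only. Among the 15000 strongest peaks of each list the genes held 37 in control cells and 12 in starved cells. Counts over all gene windows at that list length are not given here, so this difference cannot be called particular to the 10 genes.

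**Figure D3:**
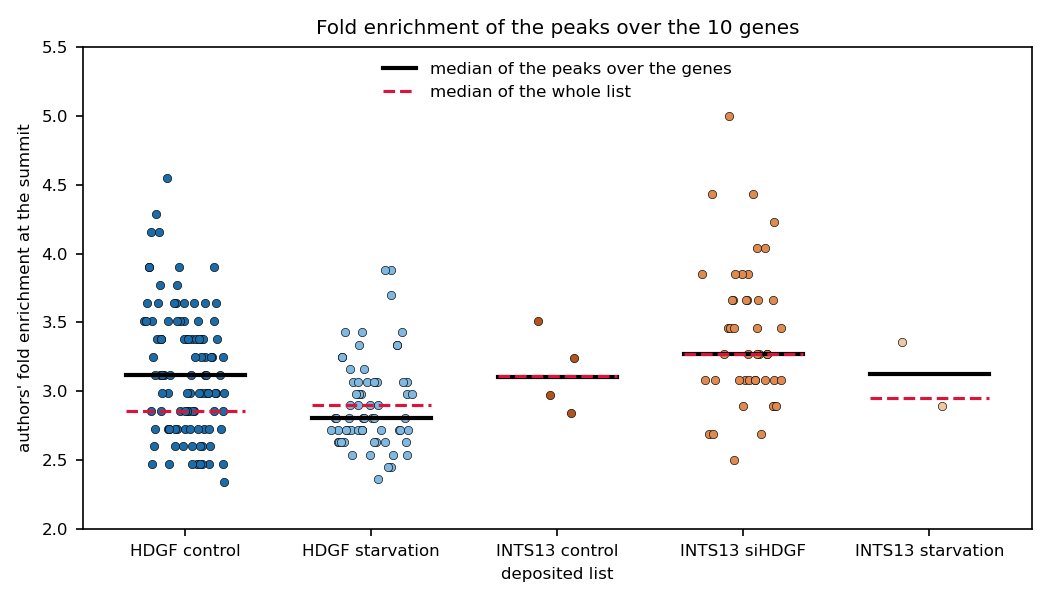
The authors' fold enrichment at the summit (vertical axis) of each peak over the 10 genes, by deposited list; black lines are medians of these peaks and dashed red lines medians of the whole list. Medians were 3.12 against 2.86 for HDGF control and 2.81 against 2.90 for HDGF starvation, and no fold exceeded 5.00; folds of different lists rest on different backgrounds and are not compared.

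INTS13 had few peaks over these genes in control cells. It was found at 2 of 10, against 13.2% of all genes, and both lie on chromosome 1. CTH had 3 peaks: just past the start at chr1:70411295-70411494 (fold 2.97), in the body at chr1:70427778-70428004 (fold 3.51, interval 2.32 to 5.12, 25 reads) and at chr1:70433311-70433955 (fold 3.24). PHGDH had 1, at chr1:119732331-119732565 (fold 2.84, interval 1.79 to 4.31, 20 reads). The other 8 genes had none, and around SHMT2, PSPH, ASNS and SLC7A11 no INTS13 control peak lay in the 1 Mb on either side. Both genes also held HDGF in control cells, so 2 of 10 had both proteins, against 11.5% of all genes. Of the 4 INTS13 peaks 3 overlapped an HDGF control peak, and the one at the CTH start did not.

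After HDGF depletion INTS13 had a peak at 7 of 10 genes, against 51.2% of all genes. PHGDH and CTH had peaks in both lists, against 12.5% of all genes, PSAT1, PSPH, MTHFD2, SLC7A5 and SLC3A2 in depleted cells alone, against 38.7%, and no gene in control cells alone, against 0.704%. SHMT2, ASNS and SLC7A11 had none. The count over the 10 genes was 45 peaks against 4 in control cells, a ratio of 11.2, where all gene windows had a ratio of 4.38 and the whole lists 3.39. PHGDH and CTH held 15 each, so without these 2 genes on chromosome 1 the counts were 15 and 0, and the density in depleted cells was 4.11 per 100 kb against 3.63 over all gene windows off chromosome 1. Among the 15000 strongest peaks of each list the 10 genes held 10 in depleted cells, at PHGDH, CTH and SLC3A2, and 2 in control cells, at CTH alone. For these too, counts over all gene windows are not given here. The depletion list has the lowest background in reads of the 5, so a fold of 3 there rests on fewer reads, and the part of depth in the difference was not tested.

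**Figure D4:**
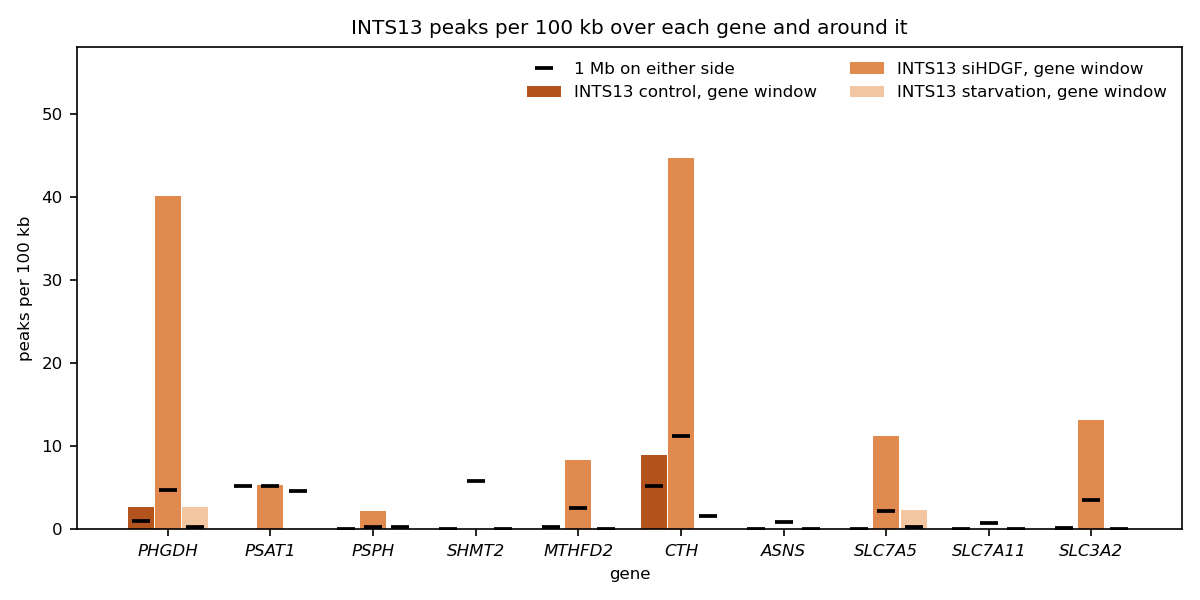
INTS13 peaks per 100 kb (vertical axis) over each gene with 2.5 kb on either side, in control, HDGF-depleted (siHDGF) and starved cells; black dashes give the density in the 1 Mb on either side in the same list, and there are no error bars because each group has 1 list. PHGDH and CTH stand at 40.2 and 44.7 per 100 kb after HDGF depletion, the other genes at 13.2 or below. Both lie on chromosome 1, where gene windows held 15.5 per 100 kb in that list. Of the gene windows there, 16.6% were at least as dense as PHGDH and 14.5% at least as dense as CTH.

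At CTH the 15 INTS13 peaks of depleted cells included the strongest over the 10 genes, at chr1:70416377-70416973 (fold 5.00, interval 3.31 to 7.29, 25 reads). All 3 control peaks were overlapped by a peak of the depletion list, including the one at the start, where the fold was 3.85. Around CTH the counts were 105 in control cells and 225 in depleted cells. At PHGDH the strongest of 15 was at chr1:119731396-119731671 (fold 4.23, interval 2.69 to 6.37, 21 reads), and none overlapped the control peak of that gene. Here the surroundings went from 19 to 94. Of the 45 peaks 60.0% overlapped an HDGF control peak: 14 of 15 at CTH, where HDGF covered 74.0% of the window, 9 of 15 at PHGDH, 2 of 5 at SLC3A2, 1 of 5 at SLC7A5, 1 of 2 at PSAT1 and 0 at PSPH and MTHFD2. The same share over all INTS13 peaks of depleted cells is not given here, so 60.0% cannot be called particular to these genes.

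The other genes had few INTS13 peaks in depleted cells. SLC3A2 had 5, the strongest at chr11:62864278-62864509 in the gene body (fold 4.43, 22 reads), and the peak over its internal start had a fold of 3.85. SLC7A5 had 5 with folds of 2.69 to 3.08, all within 10 kb of its start. Of these, 2 fell below a −log10 q of 2. MTHFD2 had 2 with a fold of 3.66 each, the first just past the start and the second at chr2:74212250-74212592. PSAT1 had 2 with a fold of 3.27 each, and PSPH 1 with a fold of 2.89. In the 1 Mb on either side, INTS13 counts in control and depleted cells were 3 and 71 for SLC3A2 and 1 and 43 for SLC7A5. They were 4 and 52 for MTHFD2, 104 and 103 for PSAT1, and 0 and 5 for PSPH. SHMT2, ASNS and SLC7A11, without a peak of their own, had 0 and 116, 0 and 17, and 0 and 15. In 7 of 7 genes with a peak the window was denser than the 1 Mb on either side, against 71.5% of all genes with a peak and 36.6% of all genes, although at PSAT1 the densities were nearly equal, 5.27 and 5.15 per 100 kb.

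In starved cells INTS13 had a peak at 2 of 10 genes, against 11.7% of all genes. At SLC7A5 the peak lay on the start (fold 3.36, interval 2.56 to 4.32, 56 reads, −log10 q 4.53), where no INTS13 peak lay in the other lists, the nearest edge being 1355 bases away in depleted cells and 583003 in control cells. The HDGF starvation peak closest to it, at chr16:87869738-87870270, began 231 bases before the start and did not overlap it. At PHGDH the peak was at chr1:119742337-119742554 (fold 2.89, interval 2.17 to 3.80, 48 reads), inside the strongest HDGF starvation peak of the gene. Of the 10 genes, PHGDH was the only one with INTS13 in control and starved cells, against 6.92% of all genes, though the peaks lay about 10 kb apart. CTH had INTS13 in control cells alone, against 6.29%, and SLC7A5 in starved cells alone, against 4.73%. Both proteins were found in starved cells at PHGDH and SLC7A5, against 10.1% of all genes. The starvation and depletion comparisons share the INTS13 control list.

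Other genes of amino acid supply were also described. Of 58 further enzymes and transporters, HDGF was at 40 in control cells (69.0%) and 30 in starved cells (51.7%), with 26 in both, and INTS13 was at 8 in control cells (13.8%), 37 after HDGF depletion (63.8%) and 9 in starved cells (15.5%). The shares of all genes were 49.7% and 41.1% for HDGF and 13.2%, 51.2% and 11.7% for INTS13. Peaks in 4 or 5 of the lists were found at 11, among them MTHFD1L, MTR, GLUL, GOT1, ASS1, SLC25A1, SFXN1, SLC38A3 and SLC38A10. The share of all genes with peaks in 4 or 5 lists is not given here, so the 11 cannot be called particular to this pathway. GLUL, glutamine synthetase, held a peak in all 5 lists, with a fold of 3.82 for INTS13 in starved cells. SFXN1, the mitochondrial serine carrier, held 26 HDGF peaks in control cells and 6 in starved cells, and SLC38A10 2 and 20. The transcription factors ATF4, DDIT3, CEBPB, CEBPG, NFE2L2, ATF3 and MYC were looked up too. Of these 7, HDGF was at 6 in control cells and 4 in starved cells. INTS13 was at 3, 5 and 2 in control, depleted and starved cells. The 3 include MYC, with 1 peak of fold 2.43 (−log10 q 1.49). CEBPG held 1 HDGF control peak and none in the other lists, and NFE2L2 held 5 HDGF control peaks, 3 INTS13 peaks after depletion and none in starvation. ATF4 held 5 HDGF peaks in each list and 4, 5 and 0 INTS13 peaks in control, depleted and starved cells, and ATF3 held 32 and 21 HDGF peaks and 8, 28 and 1 INTS13 peaks. ATF3, GLUL and MTR lie on chromosome 1, where peaks were denser. In control cells gene windows there held 18.1 HDGF and 5.9 INTS13 peaks per 100 kb, against 4.94 and 0.596 on the other chromosomes.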

How the data were processed

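The series holds 16 samples: 10 immunoprecipitations in 5 groups and 6 inputs, which were not analysed here. Per the submitters' processing notes, FastQC, Trimmomatic, Bowtie, Picard and MACS2 were used on hg38. The sources used here do not give the tools' versions or how inputs and replicates entered peak calling. Each deposited list gives, per peak, the authors' score, fold enrichment (a ratio), −log10 p, −log10 q and the summit's offset, used only to describe or filter peaks within a list. Read counts and totals were not used here.

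A gene held a peak when at least 1 base lay in its body or within 2.5 kb of either end. In the 1 Mb on either side of the 10 genes' windows, peaks were counted by their summit, which favours the window. Counted by summit too, these windows held the same numbers, except CTH after HDGF depletion with 14 in place of 15. Gene positions and starts came from RefSeq tables of GRCh38.p14, the assembly that hg38 names. Peaks on alternate sequences (93 in all lists) were left out. Background reads were found by fitting a Poisson distribution to the folds and p-values, and summit reads follow from them. In the starved lists both were divided by the scale of the list. Python 3.11.15, pandas 2.3.3 and SciPy 1.17.1 were used. Interval counting was tested on simulated data. Other flanks, thresholds, list lengths and overlaps were tried. The members and gene lists were chosen with earlier results of these data known. All 10 members are named. Of the other pathway genes, those with peaks in 4 or 5 lists or the strongest peak of a list by −log10 q were to be named; some of these are not reported here. The values given for GLUL, ATF4, ATF3, CEBPG, NFE2L2, MYC, SFXN1 and SLC38A10 were picked after their values were seen.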

Additional observations from a re-analysis of the deposited data

How the results depend on the processing

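Across 80 alternative values of the counts and densities over the 10 genes, 57 stayed within 1.5 times the reported value and 23 did not. The shares of all genes at these alternative settings are not given here, so the counts below describe the 10 genes only. A flank of 1 kb or 5 kb, summits in place of any base, and a −log10 q of at least 2 moved none of the counts of genes by more than that. Smaller changes did occur for HDGF. In control cells it was at 9 genes at that q, without SLC7A11. It was at 7 among the 15000 strongest peaks and at 8 with 2.5 kb around either end alone. In starved cells HDGF was at 4 and 5 genes in these last 2 settings, and as many were kept from control. Among the 15000 strongest peaks of each list, INTS13 was at 1 gene in control cells (CTH) and 3 after HDGF depletion, with 1 kept, 0 kept from control to starvation, and 1 gene with both proteins in control cells. With 2.5 kb around either end alone, INTS13 was at 1 gene in control cells and 4 after depletion, with 1 kept, 0 kept in starvation and 1 with both proteins in control cells. When peaks had to overlap by 1 base, by 50% of both, or have summits within 250 bp, INTS13 was kept at 1 gene after depletion (CTH) and 0 in starvation each time. Both proteins in control cells then shared 0 genes at 50% overlap, and in starved cells 1 by 1 base, 0 at 50% and 0 by summits. Without the genes on chromosome 1, an alternative chosen after seeing the data, INTS13 densities were 0 per 100 kb in control cells, 4.11 after depletion and 0.274 in starved cells, against 0.918, 10.3 and 0.459. No paired analysis was possible because each group has 1 deposited list for both replicates, and for the same reason no replicate could be left out. Depth differed between lists, and its part in the counts was not tested. A list with fewer background reads needs fewer summit reads for a peak, and the absence of a peak does not show the absence of the protein.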
